A study of Mus musculus with 8 samples.

Results

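The 7 mitochondrially encoded respiratory genes mt-Nd1, mt-Nd2, mt-Nd4, mt-Nd5, mt-Nd6, mt-Co1 and mt-Cytb were followed in a mouse inner medullary collecting duct line (IMCD) exposed to hypertonic NaCl. They were chosen by symbol from the 15288 genes of a raw count table, and all 7 passed the filter on low counts that left 14024 genes. The control group was 4 libraries of cells kept for 12 h in serum-free DMEM, and the NaCl group was 4 libraries of cells kept for 12 h in the same medium with 100 mmol NaCl, an amount the labels give without a volume. All cells were grown beforehand in DMEM with serum, and no genotype or further agent is named. The libraries carry the numbers 1 to 4 (control) and 5 to 8 (NaCl), which serve as replicate names, and the labels do not say what order the numbers follow. Nothing says that the libraries of a group came from separate cultures, so p-values measure the spread between these libraries, which may be technical.

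Mitochondrial DNA is a small circle inside the organelle. It is copied into long RNAs from both strands, which are cut, largely at the tRNAs that lie between the genes, into rRNAs, tRNAs and messenger RNAs for core subunits of the respiratory chain. The mt-Nd genes encode membrane subunits of complex I (NADH dehydrogenase), mt-Cytb encodes cytochrome b of complex III, and mt-Co1 encodes the catalytic subunit of complex IV (cytochrome c oxidase). mt-Nd6 is the single protein gene on the light strand, and the other members are read from the heavy strand. The remaining subunits of these complexes are encoded in the nucleus.

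The members lie on the mitochondrial chromosome of GRCm38 (GENCODE M21), the build that UCSC calls mm10 and that the submitters' processing notes name. In the order of the map they are mt-Nd1 (ENSMUSG00000064341, chrM:2751-3707), mt-Nd2 (ENSMUSG00000064345, chrM:3914-4951), mt-Co1 (ENSMUSG00000064351, chrM:5328-6872), mt-Nd4 (ENSMUSG00000064363, chrM:10167-11544), mt-Nd5 (ENSMUSG00000064367, chrM:11742-13565), mt-Nd6 (ENSMUSG00000064368, chrM:13552-14070) and mt-Cytb (ENSMUSG00000064370, chrM:14145-15288). Each is a protein-coding gene annotated without introns. The first 5 and mt-Cytb are on the plus strand of the annotation, and mt-Nd6 is on the minus strand.

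Some of this sequence also exists in the nuclear genome. Among annotated nuclear transcripts, stretches of at least 75 bases at 98% identity covered 63.6% of mt-Nd4 (876 of 1378 bases) and 31.3% of mt-Co1 (483 of 1545 bases), and none of the other 5 members. The copy of mt-Nd4 is the pseudogene Gm28439 (chr1:24611535-24612410) and was identical over its whole length. The copy of mt-Co1 is the neighbouring pseudogene Gm29216 (chr1:24615706-24616197), of which 483 of 492 bases aligned, with 1 base different. Below that identity, mt-Nd2 matched Gm13339 at 96.7% over 510 bases, and mt-Nd5 matched Gm4076 at 95.2% over 954 bases. A longer, less alike copy of mt-Co1, Gm13340 (chr2:22588103-22589647), matched at 97.6% over all 1545 bases. The start of the mt-Co1 stretch (chrM:6390-6449, plus strand) is printed with both copies (chr1:24616129-24616188 and chr2:22588526-22588585, minus strand) because it shows how few bases separate a mitochondrial read from a nuclear one. Capitals mark bases that differ between mt-Co1 and a copy.
mt-Co1: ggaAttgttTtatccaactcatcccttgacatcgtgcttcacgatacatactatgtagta
Gm29216: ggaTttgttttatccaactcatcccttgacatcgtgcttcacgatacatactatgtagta
Gm13340: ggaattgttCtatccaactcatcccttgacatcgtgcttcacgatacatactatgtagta
In mt-Nd4 the shared part ends inside the gene (chrM:11013-11072, plus strand), and capitals mark its last 30 bases.
mt-Nd4: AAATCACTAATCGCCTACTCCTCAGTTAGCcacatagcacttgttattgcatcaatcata
A different kind of sharing joins mt-Nd5 and mt-Nd6, whose ends overlap on opposite strands by 14 bases, in capitals below (chrM:13526-13565, plus strand, and chrM:13552-13591, minus strand). The strandedness of the counting is not given in the sources used here, so reads from mt-Nd6 and from RNA of the opposite strand cannot be told apart.
mt-Nd5 end: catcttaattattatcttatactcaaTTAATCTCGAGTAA
mt-Nd6 end: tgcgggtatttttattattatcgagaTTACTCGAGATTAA

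Of the 13 mitochondrial protein-coding genes in the annotation, 9 were analysed here, the 7 members with mt-Co2 and mt-Co3, and the other 4 (mt-Atp6, mt-Atp8, mt-Nd3 and mt-Nd4l) were not analysed here. The same search found copies over 99.6% of mt-Atp6, 99.1% of mt-Nd3 and 99.0% of mt-Nd4l, and over none of mt-Atp8. mt-Co2 encodes a catalytic subunit of complex IV and had an identical nuclear copy over 99.6% of its bases. In library order it had 1, 0, 33 and 3 counts without NaCl and 47, 0, 0 and 45 with it. mt-Co3, a further core subunit of complex IV, had an identical copy over 99.9% of its bases and had 273, 0, 101 and 183 counts without NaCl and 0, 317, 2 and 1 with it. Neither gene was even between libraries of a group, where mt-Co1 had 244822 to 297741 counts. mt-Co2 did not pass the filter on low counts, and mt-Co3 did but was not called (edgeR adjusted p = 0.783). How reads that match more than a single place were counted is not given in the sources used here, and its part in these values was not tested.

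Levels were compared between members as CPM (counts scaled to a common library total with TMM factors) per kilobase of gene. In control libraries mt-Co1 stood at 4123 ± 121 CPM per kb (SD, n = 4), mt-Cytb at 2020 ± 121, mt-Nd1 at 1622 ± 125, mt-Nd5 at 1063 ± 54.3, mt-Nd2 at 955 ± 56.4, mt-Nd4 at 581 ± 45.9 and mt-Nd6 at 116 ± 13.3. The light-strand gene was thus the lowest of the 7, and its neighbour mt-Nd5 stood 9.2-fold higher per kb. The libraries of neighbours in this order did not overlap, except for mt-Nd5 (983 to 1102) and mt-Nd2 (879 to 1012). With NaCl, mt-Nd2 (1117 ± 112) and mt-Nd5 (1065 ± 82.2) still overlapped, and so did mt-Cytb (2206 ± 201) and mt-Nd1 (1963 ± 157). Divided by the length without a nuclear copy, mt-Nd4 came to 1596 ± 126 CPM per kb in control, beside mt-Nd1, and mt-Co1 to 5998 ± 176. Such a length is approximate, since reads that cross the edge of a copy can be placed. By CPM without length, mt-Co1 was the third most abundant of the 14024 genes and mt-Nd6 stood at place 4083.

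**Figure D1:**
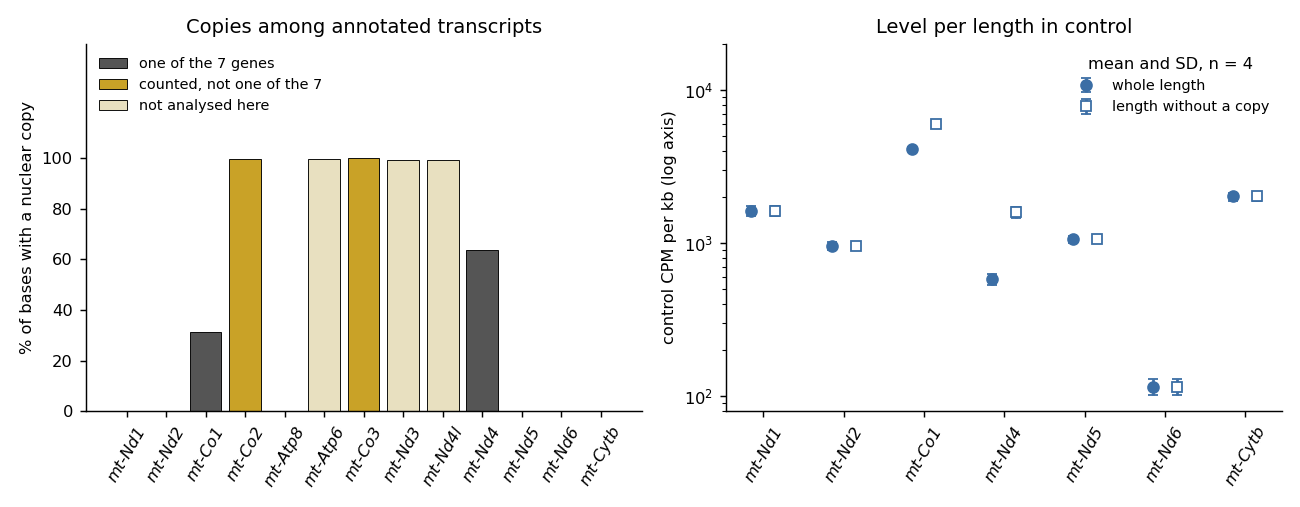
Left, percent of the bases of each mitochondrial protein-coding gene with a nuclear copy among annotated transcripts (at least 75 bases at 98% identity), coloured by use. Right, mean CPM per kb in control with SD (n = 4; log axis) over the whole length (circles) and over the length without a copy (squares). mt-Nd4 moves from 581 to 1596 and mt-Co1 from 4123 to 5998. The other 5 genes have no copy at that identity among annotated transcripts and do not move.

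The group comparison asked which of these genes changed with hypertonic NaCl. mt-Nd1 and mt-Nd2, complex I genes that come first among the members on the map, rose by 21% and 16.9%. The other 5 members did not pass the test. By edgeR's quasi-likelihood test with Benjamini-Hochberg adjustment over all 14024 genes, 2 of 7 members were called higher and 0 lower at an adjusted p under 0.05. Over all genes 16.9% were called higher and 17.2% lower, so with 7 genes this count says little about the members as a group. DESeq2 and limma-voom each called 2 of 7 as well, and no further member reached an unadjusted edgeR p under 0.05. All 7 estimates were above 0, with a median log2 fold change of 0.13 against 0.0029 over all genes tested.

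mt-Nd1 had 1650, 1657, 1486 and 1417 CPM in control libraries, in the order of their numbers, and 2089, 1845, 1851 and 1731 CPM in NaCl libraries. Every NaCl library lay above every control library. The means were 1553 ± 120 and 1879 ± 151 CPM (SD, n = 4 each), and the log2 fold change was 0.28 (SE 0.064; edgeR adjusted p = 0.00666).

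mt-Nd2 had 1050, 1015, 987.5 and 912.2 CPM in control and 1333, 1113, 1097 and 1093 CPM in NaCl libraries. The groups did not overlap, and NaCl replicate 5 stood well above the other 3 of its group. The log2 fold change was 0.23 (SE 0.067; edgeR adjusted p = 0.0236). The call was lost without control replicate 3 (log2 fold change 0.22, edgeR adjusted p = 0.0521) or control replicate 4 (0.19, 0.0576). These 2 of 7 members were the ones whose groups did not overlap, where 33.4% of all genes showed such a separation in either direction.

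mt-Cytb had 2424, 2420, 2263 and 2135 CPM in control and 2848, 2483, 2457 and 2306 CPM in NaCl libraries. The groups overlapped through the last library of NaCl. Its log2 fold change was 0.13 (SE 0.062; 95% interval -0.01 to 0.27; edgeR adjusted p = 0.143), and without NaCl replicate 8 it was 0.17 and passed (adjusted p = 0.0458). Without NaCl replicate 5 it was 0.06 (adjusted p = 0.32).

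mt-Nd4 had 824.7, 850.7, 820.6 and 708.2 CPM in control and 944.6, 860.1, 867.8 and 804.3 CPM in NaCl libraries. Control replicate 4 was the low library, and the groups overlapped. The log2 fold change was 0.12 (SE 0.060; 95% interval -0.01 to 0.25; edgeR adjusted p = 0.152). It was 0.06 without control replicate 4 (adjusted p = 0.327) and 0.08 without NaCl replicate 5 (0.34).

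The most abundant member, mt-Co1, had 6240, 6646, 6315 and 6278 CPM in control and 6830, 6340, 6473 and 6195 CPM in NaCl libraries. The groups lay on top of each other. The estimate was 0.02 (SE 0.036; 95% interval -0.06 to 0.10; edgeR adjusted p = 0.706), and it was just below 0 without NaCl replicate 5 (-0.008).

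mt-Nd5 had 2010, 1977, 1979 and 1793 CPM in control and 2164, 1900, 1877 and 1832 CPM in NaCl libraries. Without NaCl replicate 5 the NaCl libraries lay within the range of the controls. The estimate was 0.003 (SE 0.052; 95% interval -0.11 to 0.11; edgeR adjusted p = 0.972), and it was below 0 without control replicate 4, without NaCl replicate 5 or without the filter on low counts.

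mt-Nd6, the light-strand gene, had 55.27, 58.59, 70.15 and 56.02 CPM in control and 62.41, 68.39, 82.84 and 62.19 CPM in NaCl libraries. The third library of each group was the highest of its group. The log2 fold change was 0.20 (SE 0.11; 95% interval -0.05 to 0.46; edgeR adjusted p = 0.202), and without control replicate 3 it was 0.28 and passed (adjusted p = 0.0394). Without NaCl replicate 7, the highest library, it was 0.10 (adjusted p = 0.371).

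Counting error alone would give a coefficient of variation between 0.193% for mt-Co1 and 1.93% for mt-Nd6, while libraries of a group varied by 2.93% (mt-Co1, control) to 14.1% (mt-Nd6, NaCl). Total counts were 41.77 to 47.57 M in control and 35.29 to 42.39 M in NaCl libraries, with control replicate 1 the deepest and NaCl replicate 5 the shallowest. NaCl replicate 5 was also the library in which 6 of the 7 members were highest. Its part in the group difference is given by leaving it out, when mt-Nd1 stayed higher at 0.22 (edgeR adjusted p = 0.00604) and mt-Nd2 at 0.15 (0.0133). Without it the median of the 7 estimates went from 0.13 to 0.08, and 2 of 7 (mt-Co1 and mt-Nd5) were below 0. In bulk RNA, a change in the RNA of each cell and a change in the mix of cells cannot be told apart.

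**Figure D2:**
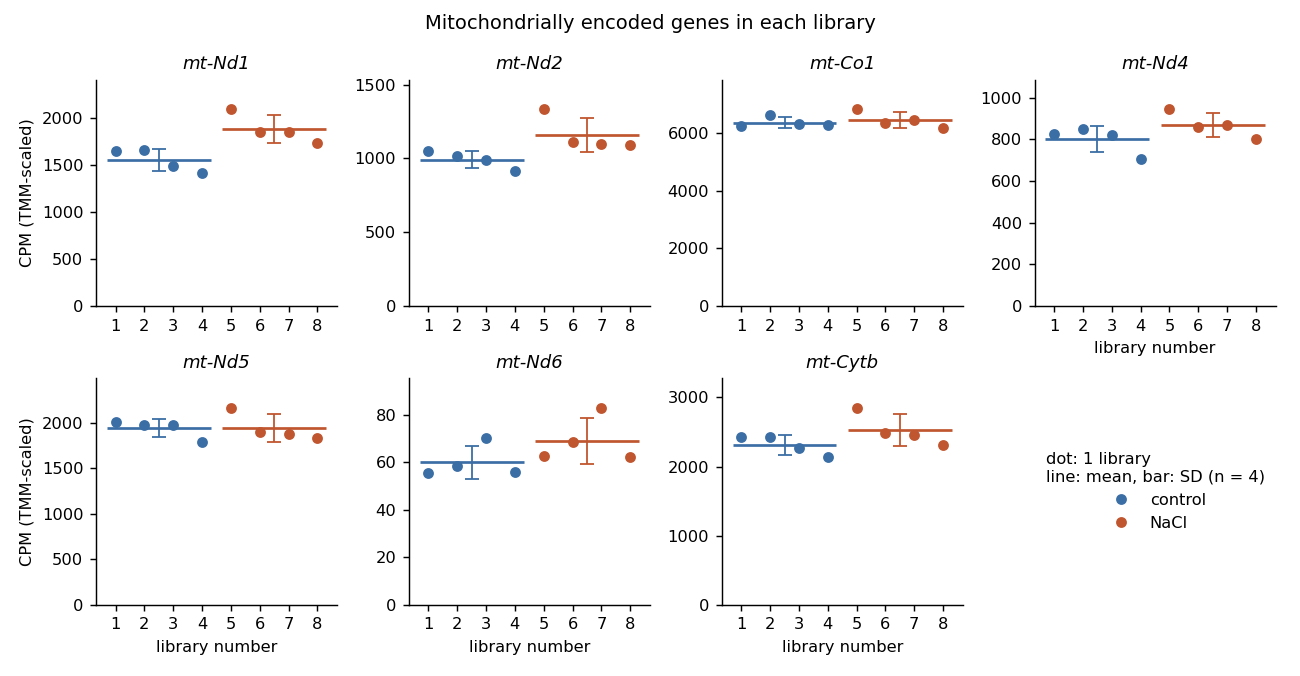
CPM of each member (vertical axes from 0, different for each gene) against library number, with control libraries 1 to 4 in blue and NaCl libraries 5 to 8 in orange; lines are group means and bars SD (n = 4). mt-Nd1 and mt-Nd2 separate the groups, and within each group most members are lower at higher library numbers.

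Along the library number inside each group, 5 of the 7 members were lower at higher numbers. A slope per library, common to both groups, was fitted with the group and the number centred within its group. mt-Nd1, mt-Cytb, mt-Nd2, mt-Nd4 and mt-Nd5 fell along the number, so 5 of 7 members were called falling, against 6.22% of all genes falling and 6.95% rising. With library totals alone as scaling, 6 of 7 members were called falling, and the 872 falling and 975 rising genes became 1327 and 731. mt-Nd1 had a log2 slope of -0.08 per library (SE 0.012; edgeR adjusted p = 6.21e-06), or -5.5% from a library to the next. mt-Cytb had -0.08 (SE 0.011; adjusted p = 8.31e-06), mt-Nd2 -0.08 (SE 0.014; 4.22e-04), mt-Nd5 -0.06 (SE 0.012; 5.82e-04) and mt-Nd4 -0.07 (SE 0.014; 9.28e-04). Without NaCl replicate 5 the slope of mt-Nd2 was -0.05 and remained called (edgeR adjusted p = 0.00626), and that of mt-Nd5 was -0.04 (0.0211). Without control replicate 4 the slope of mt-Nd4 was -0.05 (0.033). The falling members also moved together within groups, as given below, so their calls are not separate events.

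mt-Co1 and mt-Nd6 did not pass. The slope of mt-Co1 was -0.02 (95% interval -0.05 to 0.00; edgeR adjusted p = 0.206), and it passed without control replicate 1 (0.0458) and with library totals alone as scaling (0.0463). Without NaCl replicate 5 it was -0.008 (adjusted p = 0.758). That of mt-Nd6 was 0.03 (95% interval -0.12 to 0.19; adjusted p = 0.821), and it ran from 0.006 without NaCl replicate 5 to 0.09 without NaCl replicate 8. With group means removed, the 6 heavy-strand members moved together over the 8 libraries, with Pearson's r between 0.696 (mt-Nd2 with mt-Co1) and 0.978 (mt-Nd1 with mt-Cytb). mt-Nd6 had an r between -0.304 and 0.143 with them. These values come from the same libraries and share their scaling and depth, and are a description.

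The slopes were also fitted separately in each group. mt-Nd1 had -0.08 in control and -0.08 in NaCl libraries, mt-Cytb -0.07 and -0.09, mt-Nd2 -0.07 and -0.09, mt-Nd4 -0.07 and -0.07, and mt-Nd5 -0.05 and -0.07. mt-Co1 had -0.005 and -0.04, and mt-Nd6 0.04 and 0.03. The difference of slopes between the groups was called for 0 of 7 members by edgeR (lowest adjusted p = 0.763, for mt-Co1; 0 at an unadjusted p under 0.05), where 0.0927% of all genes were called. DESeq2 and limma-voom also called 0 of 7.

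Because all control numbers are below all NaCl numbers, a step between library 4 and library 5 and a difference between the groups cannot be told apart by the design. A linear drift can be fitted together with the group, and the size of the group difference then depended on how the number was treated. With the number centred within groups, which leaves the estimates in place and takes the slope out of the spread, 4 of 7 members were called higher: mt-Nd1 (edgeR adjusted p = 6.57e-11), mt-Nd2 (1.71e-06), mt-Cytb (1.34e-04) and mt-Nd4 (0.00246). That fit called 21.0% of all genes higher. With a linear drift over all 8 libraries, 5 of 7 were called higher, against 11.5% of all genes called higher in that fit. The log2 fold changes were then 0.60 for mt-Nd1 (SE 0.053), 0.53 for mt-Nd2 (SE 0.063), 0.44 for mt-Cytb (SE 0.052), 0.40 for mt-Nd4 (SE 0.063) and 0.25 for mt-Nd5 (SE 0.055; edgeR adjusted p = 9.17e-04). mt-Co1 (0.11; adjusted p = 0.125) and mt-Nd6 (0.07; 0.899) did not pass.

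**Figure D3:**
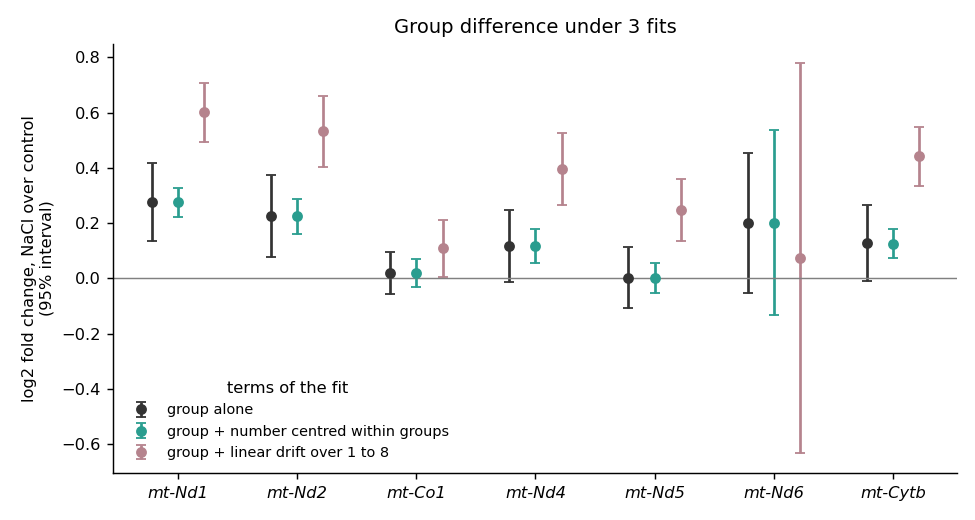
Log2 fold change of NaCl over control with its 95% interval for each member, in map order, in 3 fits: group alone (black), group with the number centred within groups (green) and group with a linear drift over libraries 1 to 8 (pink). mt-Nd1 and mt-Nd2 are above 0 in all 3 fits, the drift raises 6 of the 7 estimates, and mt-Nd6 has the widest intervals.

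Counts of the members were also taken relative to each other within a library, which needs no scaling between libraries. These ratios are given as a description, without a test. Per 100 counts of mt-Cytb, mt-Nd1 had 68.1, 68.5, 65.6 and 66.4 counts in control and 73.4, 74.3, 75.3 and 75.1 in NaCl libraries. Every NaCl library was above every control library, and the mean ratio was 1.11-fold higher. mt-Nd2 went from 42.9 ± 0.740 to 45.9 ± 1.39 (SD, n = 4 each), also without overlap. mt-Nd5 had 82.9, 81.7, 87.4 and 84.0 counts per 100 of mt-Cytb in control and 76.0, 76.5, 76.4 and 79.5 in NaCl libraries. Here every NaCl library was below every control library, at 0.918 of the control mean. Per 100 counts of mt-Co1, mt-Nd5 overlapped between the groups (30.5 ± 1.63 and 30.1 ± 1.16), at 0.987 of the control mean, while mt-Nd1 and mt-Nd2 were again higher in every NaCl library than in any control (28.2% of all genes did not overlap). Per 100 counts of mt-Cytb, 3 of the 6 other members thus had groups that did not overlap, against 27.0% of all genes divided by the same counts. The groups overlapped for mt-Nd4 (34.7 ± 1.34 and 34.5 ± 0.932), for mt-Co1 (276 ± 15.1 and 257 ± 12.6) and for mt-Nd6 (2.61 ± 0.358 and 2.75 ± 0.483). A ratio does not show which of its genes changed.

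As a share of all mitochondrially encoded counts, mt-Nd1 held 11.1 ± 0.467% in control and 12.6 ± 0.204% in NaCl libraries, mt-Nd2 7.06 ± 0.221% and 7.76 ± 0.317%, and mt-Nd5 13.8 ± 0.381% and 13.0 ± 0.220% (SD, n = 4 each). The groups did not overlap for these 3 of 7 members. Of all genes, 29.4% had groups that did not overlap when their counts were divided by the same total. mt-Co1 held the most, with means of 45.4% in control and 43.4% in NaCl libraries, and its groups overlapped.

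**Figure D4:**
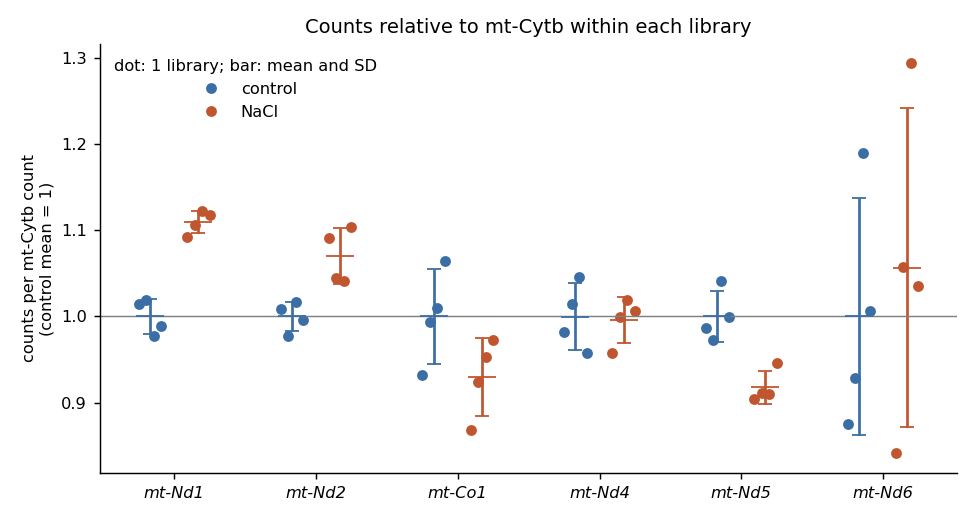
Counts of each member per mt-Cytb count in each library, divided by the control mean (dots, 4 libraries per group; bars, mean and SD). mt-Nd1 and mt-Nd2 lie above 1 and mt-Nd5 below 1 in all 4 NaCl libraries, without overlap with control, and mt-Nd6 is the most scattered.

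Nuclear genes that serve the same complexes or handle mitochondrial RNA were examined as fixed lists, against a median log2 fold change of 0.0029 and 16.9% called higher and 17.2% called lower over all genes. Of 37 complex I subunits, 1 was called higher and 2 lower, with a median of 0.01. Ndufb2 rose at 0.18 (edgeR adjusted p = 0.0491) and Ndufc2 fell at -0.21 (0.0107), both accessory subunits of the membrane arm that holds the mt-Nd products. Of 9 complex III subunits, partners of cytochrome b, 0 were called by edgeR, DESeq2 or limma-voom, with edgeR estimates from -0.12 to 0.12 and 1 gene at an unadjusted p under 0.05. Of 14 complex IV subunits tested, 4 were called higher and 2 lower, with a median of -0.04. Cox6a1 rose at 0.16 (adjusted p = 0.00838) and Cox7c fell at -0.22 (0.00542).

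Of 23 genes that copy, transcribe or regulate mitochondrial DNA, 2 were called higher and 3 lower, with a median of 0.03. Polrmt, the mitochondrial RNA polymerase, rose at 0.18 on the log2 scale, with 39.5 ± 1.26 CPM without and 44.6 ± 1.08 CPM with NaCl (SD, n = 4 each; edgeR adjusted p = 0.00709). Ppargc1b, a coactivator of genes for mitochondria, fell from 1.54 ± 0.147 to 0.939 ± 0.199 CPM, at -0.71 (adjusted p = 0.0271).

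Of 25 genes for processing and stability of mitochondrial RNA, 5 were called higher and 2 lower, with a median of 0.04. Pnpt1, the polynucleotide phosphorylase that degrades RNA in the organelle, fell from 67.3 ± 5.46 to 52.4 ± 5.26 CPM, at -0.36 (edgeR adjusted p = 0.00207). Pnpt1 also fell along the library number (slope -0.08; adjusted p = 0.00349), and it was not called in the drift fit (-0.02; 0.903). Prorp, the nuclease subunit that cuts tRNAs out of mitochondrial transcripts at their front end, rose from 14.9 ± 0.774 to 17.5 ± 0.342 CPM, at 0.23 (adjusted p = 0.0149). Of 16 translation factors and membrane insertion genes, 2 were called higher and 2 lower, with a median of -0.02. Letm1, an inner membrane protein, rose at 0.22 (adjusted p = 0.00277) and Mrrf, which recycles mitochondrial ribosomes, fell at -0.24 (0.0027). With the linear drift, some named genes were not called at estimates near those of the group fit. These were Polrmt (0.20, edgeR adjusted p = 0.116), Ppargc1b (-0.70, 0.382), Mrrf (-0.21, 0.207), Ndufb2 (0.19, 0.309), Ndufc2 (-0.22, 0.15) and Cox6a1 (0.19, 0.0598). Prorp was not called at a smaller estimate (0.10, 0.663). Letm1 (0.38, 4.49e-04) and Cox7c (-0.33, 0.0183) were called.

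**Figure D5:**
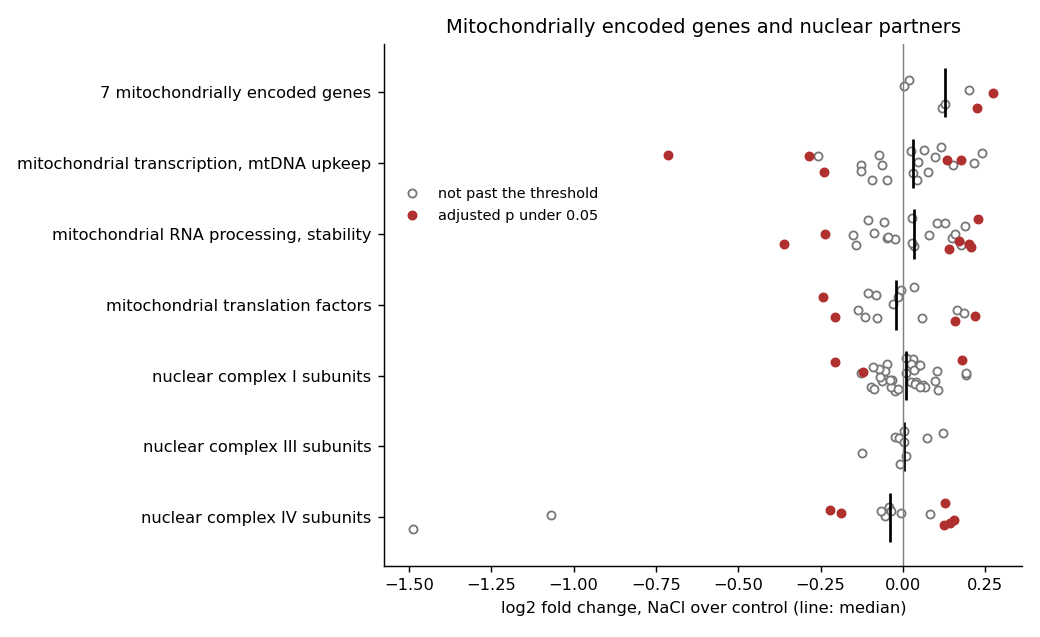
Log2 fold change of NaCl over control for the 7 members and for the nuclear genes of 6 fixed lists (dots; filled where the edgeR adjusted p is under 0.05; vertical position within a row is random; black line, median). The median of the members is 0.13, and the medians of the nuclear lists lie between -0.04 and 0.04.

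The genes most like the members over the 8 libraries were ranked by Pearson's r of log2 CPM with the members' mean profile, among the 10104 nuclear genes that averaged at least 3 on that scale. Among the 5 highest were Cep72 (0.98), Fam76b (0.976), Zdhhc16 (0.963) and Ppp1r2 (0.951). The profile itself was highest in NaCl replicate 5 (0.18 above its mean on the log2 scale) and lowest in control replicate 4 (-0.18). Of these 4 genes, Cep72 was called higher (log2 fold change 0.35, edgeR adjusted p = 0.0208), where 16.9% of all genes were called higher. The ranking took the highest of 10104 values over 8 libraries, and its profile includes the group difference. It is a description without a test.

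The labels were checked against treatment and cell type genes. Akr1b3, which makes the osmolyte sorbitol, had a log2 fold change of 2.71 and the inositol transporter gene Slc5a3 1.18, and the betaine transporter gene Slc6a12 had 0 counts in each control and 215 to 288 counts in NaCl libraries. Of 11 collecting duct markers 6 reached a mean of 1 CPM, and Aqp2, Aqp3, Aqp4, Avpr2 and Scnn1b did not. The summed level was 100.3 to 107 CPM in control and 86.0 to 97.6 CPM in NaCl libraries. Hoxb7 (means of 71.4 and 60.2 CPM), Gata3 (8.10 and 5.97) and Scnn1g (3.77 and 2.10) were called lower, and Slc14a2 (2.31 and 5.06) and Avpr2 (0.108 and 0.646) were called higher. Scnn1a (2.12 and 2.49), Tfap2b (14.1 and 14.5) and Aqp4 (0.393 and 0.233) were tested and not called. Epithelial markers reached it for 7 of 8 genes, with Cdh1 below it (881 to 1121 and 1061 to 1243 CPM). Pax2 (means of 78.8 and 185 CPM), Pax8 (159.6 and 231 CPM) and Cdh1 (0.195 and 0.535 CPM) were called higher, and Krt7, Krt8, Krt18 and Krt19 had slightly lower means with NaCl and were not called. Fibroblast markers reached it for 4 of 4, led by Col1a1, with 2716 to 3142 and 2342 to 2764 CPM, and Col1a1 (log2 fold change -0.21) and Pdgfra (-0.67) were called lower. Leukocyte markers reached it for 2 of 4, with 5.95 to 7.19 and 14.9 to 15.3 CPM. The higher leukocyte sum came from Ptprc (4.06 and 13.5 CPM), which was called higher, while Cd68 (2.41 and 1.69 CPM) was not called. Proximal tubule markers reached it for 2 of 4 (162 to 205 and 155 to 177 CPM). Nearly all of that sum was Lrp2 (means of 185.1 and 161.9 CPM), with Cubn at 2.16 and 2.45 CPM, and neither was called. Of the endothelial markers Cdh5 did not reach it. The other 3 endothelial markers, 2 leukocyte markers (Lyz2 and Itgam), Slc34a1 of the proximal tubule and the 4 intercalated cell markers were not analysed here. The part of these levels in the mitochondrial values was not tested.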

How the data were processed

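RNA of 8 libraries was sequenced in bulk. The authors deposited raw counts per Ensembl gene, the unit used here. Trim Galore 0.6.7, STAR, DESeq2 1.34.0 and mm10 are named per the submitters' processing notes, without roles; the counting program, the strandedness and the rule for reads with several matches are not given in the sources used here. A table of normalized values was not used. Groups came from the sample titles.

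The tests used edgeR 4.0.16 under R 4.3.3, with filterByExpr (minimum count 10, by group), TMM factors (0.99 to 1.016), a robust quasi-likelihood fit and F test, and Benjamini-Hochberg adjustment over the 14024 genes tested, with a call at an adjusted p under 0.05. The removed genes held 0.0191% of counts. Slopes used the library number centred within its group. Log2 CPM used a prior count of 2. Alternatives were other scalings and filters, DESeq2 1.42.0, limma-voom (limma 3.58.1), a stricter threshold, other uses of the library number and leaving out each library. On simulated data the fits recovered 53.2% of genes changed by 0.25 on the log2 scale between groups. They recovered 15.2% of genes with a slope of 0.08 per library. Of the calls at an adjusted p under 0.05, 7.48% (group) and 6.67% (slope) were false. Copies were found with blastn 2.17.0 in GENCODE M21 transcripts, since a genome sequence was not used here.

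The members and gene lists were chosen with earlier results of these data known. The genes named are the members, the other mitochondrially encoded genes by their counts, the highest and lowest called gene of each list, the 5 genes most like the members (1 of which is not reported here), and 3 osmolyte genes; the cell type markers named were picked from their lists after their values were seen. No per-sample column of the count table was left unused.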

Additional observations from a re-analysis of the deposited data

Results flagged for a closer look

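Each set of 4 values from a group, 34 sets in all, was searched for a single value far from the other 3. There were 7 such values, where 1 in 20 of these sets would be about 1.7. The sets share libraries and counts, and some hold counts near 0, so 7 against 1.7 is not a test. mt-Nd2 was at 1333 CPM in NaCl replicate 5 and at 1093 to 1113 in the rest of that group. mt-Nd5 had 1793 CPM in control replicate 4, where the other controls had 1977 to 2010. mt-Nd5 had 79.454 counts per 100 of mt-Cytb in NaCl replicate 8, where the others had 76.0 to 76.5, and this library was still below every control. mt-Co2 had 33 counts in control replicate 3, where the others had 0 to 3, and mt-Co3 had 317 counts in NaCl replicate 6, where the others had 0 to 2. Total counts were 47.57 M in control replicate 1 (41.77 to 42.73 M in the rest of the group) and 35.29 M in NaCl replicate 5 (41.37 to 42.39 M).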

How the results depend on the processing

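mt-Nd1 stayed called higher in all 19 alternatives run (log2 fold change 0.22 to 0.60; adjusted p at most 0.0191), and mt-Nd2 in 16 of 19. Leaving out a library gave 1 to 3 members called between the groups; the count was 1 without control replicate 4. It was also 1 at an adjusted p under 0.01, 4 with the library number centred within groups and 5 with the linear drift. The members' median was 0.40 with the drift and 0.08 to 0.17 with a library left out. Between the groups, the sign reversed for mt-Nd5 without the expression filter (-0.001) and with a library left out (-0.053 to 0.028), and for mt-Co1 with a library left out (-0.008 to 0.039). By construction the drift estimate is the centred estimate minus 4 times the slope, so falling members move up; the cause of the other shifts was not tested. The 4789 genes called between the groups became 3145 at an adjusted p under 0.01. The 1847 genes called along the library number became 964 at that threshold and 949 to 1870 with a library left out (949 without control replicate 1, 1042 without NaCl replicate 8 and 1088 without control replicate 4), while 5 to 6 members were called in every such fit. The 5 falling members kept their sign in all 19 slope alternatives each, and of these slopes that of mt-Nd5 in control libraries alone was not called (0.0592). No paired analysis was possible because the groups share no replicate number.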
